A study of Mus musculus with 2 samples.

Results

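The 92 genes described here are the protein-coding genes of the RefSeq mouse annotation whose symbols start with Defa, Defb or Mup followed by a digit, out of 21887 protein-coding genes in all. They comprise 28 alpha-defensin genes (Defa), 42 beta-defensin genes (Defb) and 22 major urinary protein genes (Mup). H4K12la, lactylation of lysine 12 on histone H4, had been mapped with CUT&Tag in the mouse neuroblastoma line Neuro2a, labelled as brain tumour cells. In CUT&Tag an antibody against the mark carries a transposase, which cuts and tags the DNA beside it. One group was treated with 25 mM lactate and the other with NaCl, and each consisted of 1 library, so no difference below has a replicate check. The design text gives as its question whether gene transcription is regulated by H4K12la.

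Alpha-defensins are small cationic antimicrobial peptides. In the mouse intestine they are called cryptdins, are stored in the granules of Paneth cells, and are made active by the metalloproteinase Mmp7. Beta-defensins are related peptides of epithelia, many of them expressed in the epididymis. Major urinary proteins are lipocalins that the liver secretes and the kidney excretes, and they carry and act as scent signals between mice. All these families arose by tandem duplication, and many Defa and Mup genes lie near copies with nearly the same promoter sequence. A read from such a copy can fit several places, and the sources used here do not say how these reads were placed.

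The lists held 39768 peaks for the lactate library and 46592 for the NaCl library. Each peak is described by its summit reads, meaning the number of overlapping reads at its highest point, and by the local background, the number expected there. Both were solved from the deposited values, while fold enrichment and −log10 q are the authors' own for each peak. No called peak had a summit below 11 reads in either library, and the genome-wide background was 3.06 reads in the lactate library and 2.96 in the NaCl library. A gene without a call may therefore carry signal below that height. Of 11 genes fixed as Neuro2a markers, 8 had a peak near a gene end in at least 1 library, Syt1, Map2 and Isl1 in both. None of the 4 hepatocyte markers (Alb, Apoa1, Ttr and Serpina1a) nor of the 4 epididymis markers (Crisp1, Lcn5, Lcn8 and Rnase10) had one. Among the 4 Paneth cell markers, Lyz1, Mmp7 and Ang4 had none and Itln1 had one in both libraries.

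The defensin and urinary protein genes were called less often than most genes, and the calls they had lay mainly in the NaCl library. A peak within 1 kb of a gene end was found for 8 of the 92 genes in the lactate library, against 18 in the NaCl library, or 8.7% (exact 95% interval 3.83% to 16.4%) against 19.6% (12% to 29.1%). Over all protein-coding genes the shares were 44.8% in the lactate library and 32.0% in the NaCl library, the opposite order. All 8 genes called in the lactate library were also called in the NaCl library (28.6% of all genes were called in both). No member was called in the lactate library alone, against 16.2% of all genes, and 10 members were called in the NaCl library alone, against 3.34% of all genes. The remaining 74 had no call in either (51.9% of all genes). The intervals cover counting error only. Neighbouring copies share sequence and are not independent of each other, and no test was made.

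**Figure D1:**
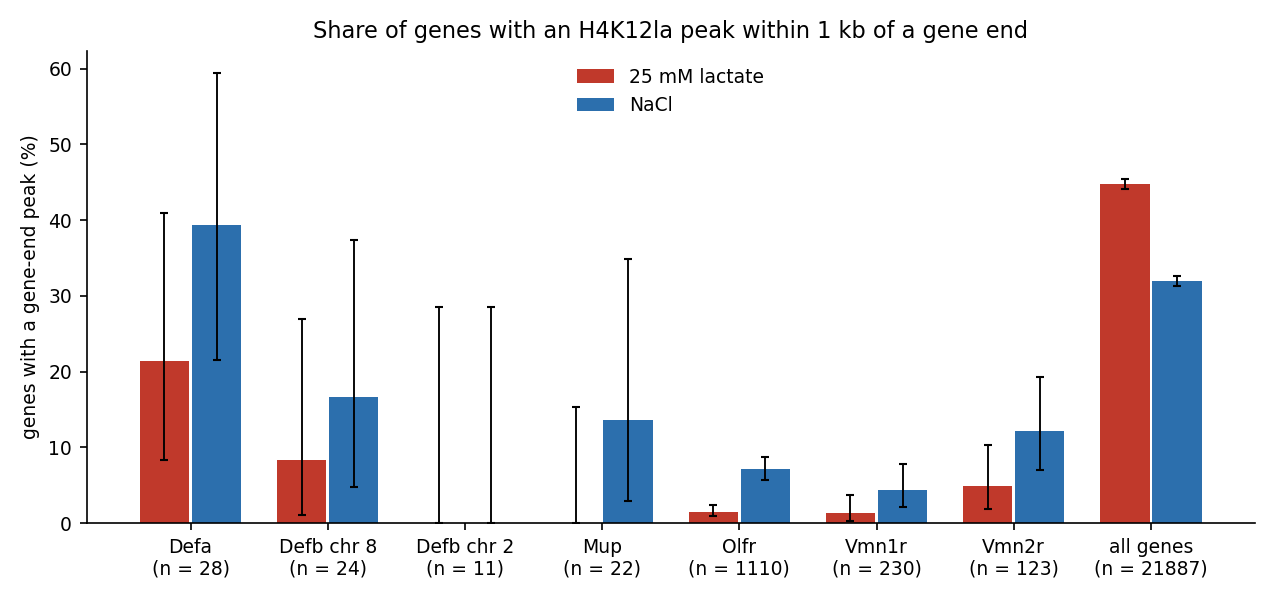
Share of genes (vertical axis, %) with a peak within 1 kb of a gene end, in the lactate library (red) and the NaCl library (blue), with exact 95% binomial intervals. The Defa, Defb chromosome 8, Mup and 3 chemosensory receptor families have the higher bar in the NaCl library, while all protein-coding genes have it in the lactate library, and the Defb genes of chromosome 2 have no call.

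By family, the Defa genes had the most calls. Among them, 6 of 28 were called in the lactate library, against 11 in the NaCl library, or 21.4% (8.3% to 41.0%) against 39.3% (21.5% to 59.4%). The shares of all protein-coding genes were 44.8% in the lactate library and 32.0% in the NaCl library. Defa genes were thus called less often than genes in general in the lactate library alone. In the NaCl library the share of all genes lay inside the Defa interval. Of the 24 Defb genes on chromosome 8, 2 were called in the lactate library, against 4 in the NaCl library. None of the 22 Mup genes was called in the lactate library, which allows a share of up to 15.4%, and 3 were called in the NaCl library, or 13.6% (2.91% to 34.9%). The 11 Defb genes of chromosome 2, the 5 of chromosome 14 and the 2 of chromosome 1 had no gene-end call in either library. Calls near gene ends were thus found on chromosomes 4 and 8 alone within this set.

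Other tandem families showed the same order of the libraries. Of 1110 olfactory receptor genes (Olfr), 17 were called in the lactate library, against 79 in the NaCl library, with 10 in the lactate library alone, against 72 in the NaCl library alone. Of 123 Vmn2r vomeronasal receptor genes, 6 were called in the lactate library, against 15 in the NaCl library, and of 230 Vmn1r genes 3 in the lactate library, against 10 in the NaCl library. Among genes called in 1 library, the NaCl library held 10 of 10 members (69.2% to 100%), 72 of 82 Olfr genes (78.7% to 94.0%) and 730 of all 4267 genes (17.1%). The order is therefore not particular to defensin and urinary protein genes. It was not that of their chromosomes: of the other chromosome 8 genes called in 1 library, the NaCl library held 45 of 195 (23.1%), and on chromosome 4 it held 38 of 341 (11.1%).

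With the whole gene and 1 kb on either side counted, 11 members had a peak in the lactate library, against 25 in the NaCl library (12% in the lactate and 27.2% in the NaCl library, against 57.6% and 47.4% of all genes). Defb12 was the 1 member with a peak in the lactate library alone (15.0% of all genes), 15 had one in the NaCl library alone (4.82% of all genes), and 10 had one in both (42.6% of all genes). These windows held 14 lactate peaks and 33 NaCl peaks, and no peak was credited to more than 1 member or lay within 1 kb of an end of any other protein-coding gene. Median summits were 13.5 reads in the lactate library, against 16 in the NaCl library. At member genes with a gene-end call the best summits had medians of 15 reads in the lactate library and 17.5 in the NaCl library, whereas over all called genes they were 24 reads in the lactate library and 17 in the NaCl library. The median at called members was thus below that of all called genes in the lactate library and close to it in the NaCl library. Among genes called in both libraries, the lactate medians were 15 reads for the 8 members and 27 for all genes. The NaCl medians there were 21 for members and 17 for all genes.

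In the NaCl library the highest member peaks lay at alpha-defensin genes, and in the lactate library at the beta-defensin genes Defb14 and Defb2. All 28 lie between Defb33 and Defb13 on chromosome 8, in a run of 38 members. The highest NaCl summits were at Defa3, Defa35 and Defa40, of which Defa40 had lactate peaks as well and the others had none. At Defa35 the NaCl peak had 26 summit reads (exact Poisson 95% interval 17.0 to 38.1), a fold of 6.82 and a −log10 q of 12.2, over a background of 2.96 reads. This peak, at chr8:21064935-21065284 (mm10), lay across the start of the gene, with its summit 88 bp inside it. At Defa3 the NaCl peak had 27 reads (17.8 to 39.3), a fold of 5.88 and a −log10 q of 10.7, and also crossed the lower-coordinate end of its gene. These were the 2 member peaks that reached a −log10 q of 10 in either library.

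The promoter of Defa35 is nearly the same as those of copies without a peak. RefSeq promoters of GRCm38.p6, the same assembly as mm10, run from 250 bp before to 50 bp after the start and matched 59 of the 92 genes. Those of Defa35 (chr8:21064788-21065087, plus strand) and its nearest relative Defa37 (chr8:21565136-21565435, plus strand) are shown because just the first had a peak. Capitals mark the motif TATAAA.
Defa35: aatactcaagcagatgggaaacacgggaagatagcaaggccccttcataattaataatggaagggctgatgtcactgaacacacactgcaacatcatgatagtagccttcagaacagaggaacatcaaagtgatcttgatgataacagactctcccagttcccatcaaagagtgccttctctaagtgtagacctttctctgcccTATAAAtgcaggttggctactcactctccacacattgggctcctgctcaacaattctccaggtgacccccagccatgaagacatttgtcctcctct
Defa37: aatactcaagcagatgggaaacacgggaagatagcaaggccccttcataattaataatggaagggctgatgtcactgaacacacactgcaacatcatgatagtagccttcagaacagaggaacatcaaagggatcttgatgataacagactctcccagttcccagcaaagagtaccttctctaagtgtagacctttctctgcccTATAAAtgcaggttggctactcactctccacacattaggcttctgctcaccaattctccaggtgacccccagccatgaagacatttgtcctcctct
Both hold TATAAA 46 bp before the start. Counted from 1 at the 5′ end, with the Defa35 base first and the Defa37 base last, they differ at 6 of 300 positions: T131G, T165G, G174A, G241A, C246T and A254C. The NaCl peak covered 153 bp of this promoter, including all of these positions except T131G. Defa36, whose 300 bp are identical to those of Defa37, also had no peak in either library.

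The same contrast was found at Defa31, which was called in both libraries, and Defa23, which was called in neither. Their 300 bp promoters are identical (Defa31 chr8:21191323-21191622, plus strand), so the sequence is printed once, with TATAAA in capitals 33 bp before the start.
Defa31: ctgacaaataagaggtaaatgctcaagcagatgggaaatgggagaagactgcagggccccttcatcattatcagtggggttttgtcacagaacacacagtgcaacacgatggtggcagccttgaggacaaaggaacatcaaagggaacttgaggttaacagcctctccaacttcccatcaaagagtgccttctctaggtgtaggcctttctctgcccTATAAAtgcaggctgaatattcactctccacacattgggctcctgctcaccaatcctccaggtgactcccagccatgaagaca
The peaks of Defa31 lay downstream of this stretch and inside the gene, with summits 539 bp past the start in the lactate library and 533 bp past it in the NaCl library. The lactate peak had 13 summit reads (6.92 to 22.2) and a fold of 3.45, and the NaCl peak had 18 reads (10.7 to 28.4) and a fold of 4.80.

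Besides Defa31, 5 alpha-defensin genes were called in both libraries. Defa40 had summits of 18 reads in the lactate library, against 26 in the NaCl library at its lower-coordinate end, chr8:21249600-21249823 and chr8:21249668-21249906. Defa17 had 16 reads in the lactate library, against 24 in the NaCl library, at peaks outside the gene by 385 bp and 226 bp. Defa39 had 18 reads in the lactate library, against 24 in the NaCl library, from peaks at different places that did not overlap. At Defa5 the summits were 13 reads in the lactate library, against 18 in the NaCl library. Defa24 had 13 reads in the lactate library, against 17 in the NaCl library. The NaCl summit was the higher at each of these genes, but the counting intervals of the libraries overlapped at every one.

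Defa38, Defa41 and Defa28 were, like Defa35 and Defa3, called in the NaCl library alone. Defa38 had a peak of 16 reads across its start, summit 106 bp before it, with a −log10 q of 3.60. Its promoter is 97.3% identical to that of Defa43, which had no call. Defa41 had 17 reads at a peak 387 bp from the gene and 15 at another inside it. Defa28 had 14 reads at a peak 659 bp from the gene. Of the peaks of these 3 genes, none reached a −log10 q of 5, the highest being 4.99 at Defa41. The other 17 Defa genes had no peak in either library, among them Defa23, Defa37 and Defa43, the closest relatives by promoter of genes with one.

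**Figure D2:**
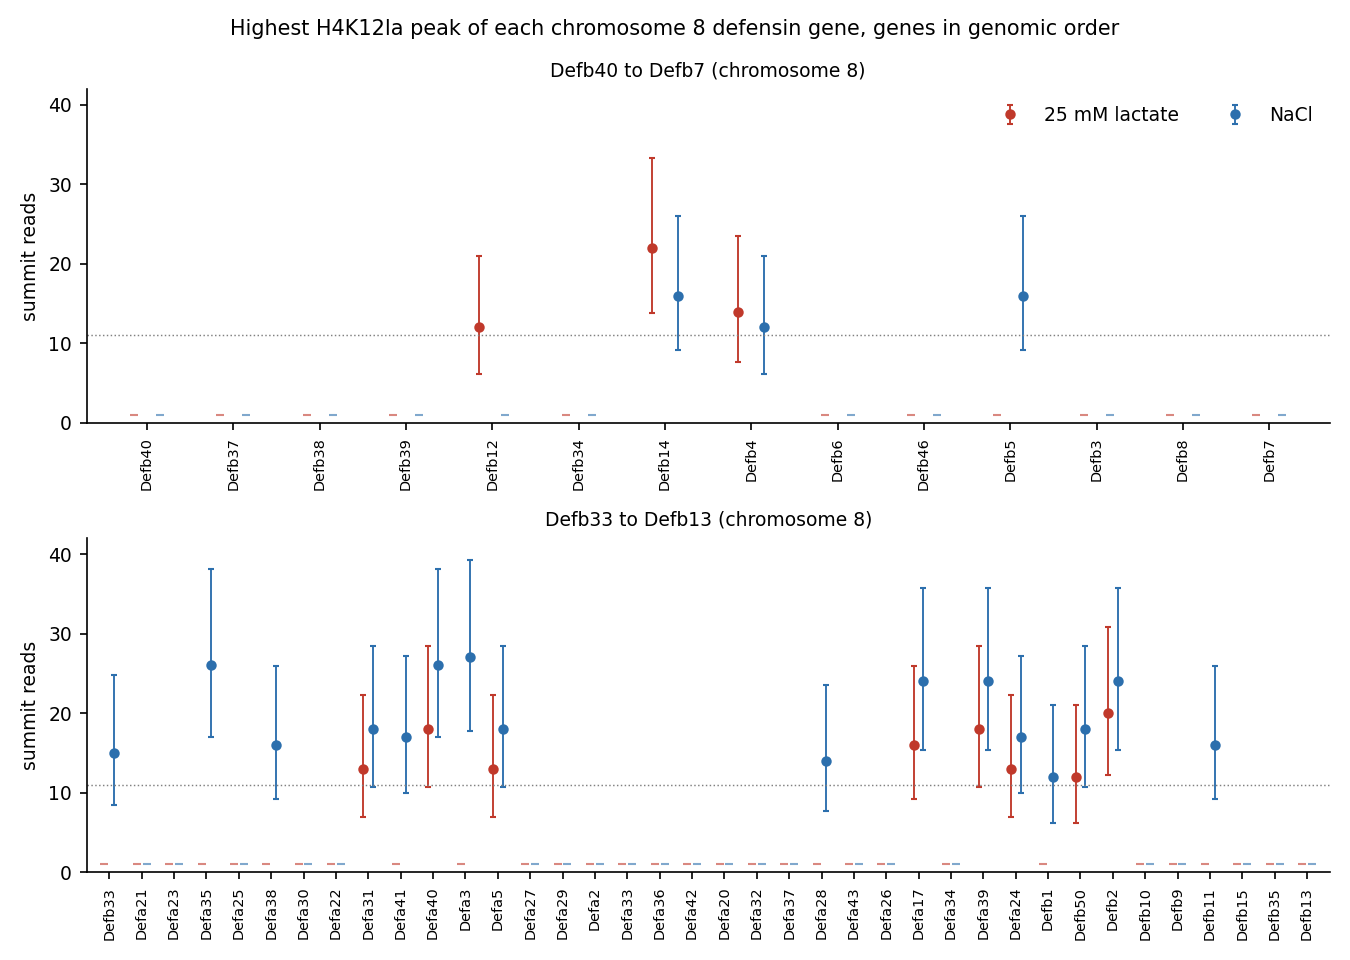
Summit reads (vertical axis) of the highest peak in or within 1 kb of each chromosome 8 defensin gene, in genomic order, for the lactate library (red, left) and the NaCl library (blue, right), with exact 95% Poisson intervals. Short dashes near the axis mark genes with no peak in that library and the dotted line is the lowest called summit of 11 reads. Where both libraries had a peak, the NaCl summit was higher at all 8 such genes from Defb33 to Defb13, and lower at Defb14 and Defb4.

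Beta-defensin genes with a peak were fewer and spread over both runs of chromosome 8. Defb2 had the highest member summit of the lactate library near a gene end, with 20 reads (12.2 to 30.9), a fold of 4.63 and a −log10 q of 6.16, against 24 reads (15.4 to 35.7), a fold of 4.10 and a −log10 q of 5.92 in the NaCl library. It was the 1 member that reached a −log10 q of 5 in the lactate library. Defb4, an inducible epithelial beta-defensin, had 14 reads in the lactate library, against 12 in the NaCl library, from peaks that did not overlap. Defb5 and Defb11 were called in the NaCl library alone, each with 16 reads at its highest peak. The 16 reads at Defb5 stood over a local background of 5.74, so its fold was 2.52 and its −log10 q 1.52, close to the authors' lowest of 1.3.

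Inside genes, away from the ends, Defb14 had 22 reads in the lactate library, over a background of 7.56, and 16 in the NaCl library, over 5.16. Mouse Defb14 encodes a peptide that binds the chemokine receptor Ccr6. Defb50 had 12 reads in the lactate library, against 18 in the NaCl library at overlapping peaks. Defb12 had a lactate peak of 12 reads. Defb1, a constitutive epithelial beta-defensin, had a NaCl peak of 12 reads, as did Defb41 on chromosome 1, and Defb33 had one of 15 reads. Of these 6 genes, Defb50 reached the highest −log10 q, 4.09 in the NaCl library.

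Where peaks of the 2 libraries overlapped at defensin genes, the summit, and in all but 1 pair the local background, was higher in the NaCl library. There were 9 such pairs at 7 genes. The NaCl summit was higher in all 9, against 25.0% of the 17922 overlapping pairs in the genome and 27.8% of 1383 on chromosome 8. Medians were 13 reads in the lactate library, against 18 in the NaCl library. The local background was higher in the NaCl library in 8 of the 9, against 16.7% of pairs in the genome and 21.7% on chromosome 8, with medians of 3.06 in the lactate library and 5.20 in the NaCl library. The lactate median of 3.06 equals the genome-wide background of that library, the lowest value under any of its peaks. Fold, which divides one by the other, was higher in the lactate library in 6 of the 9, against 45.2% in the genome, although its median was 3.45 in the lactate library and 3.71 in the NaCl library. The part of the local background in the calls was not tested. Per gene, the best gene-end summit was higher in the NaCl library at 7 of the 8 members called in both, Defb4 being the exception, against 3 of 7 Olfr genes, with 2 more equal, and 4.07% of the 6266 genes called in both libraries.

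**Figure D3:**
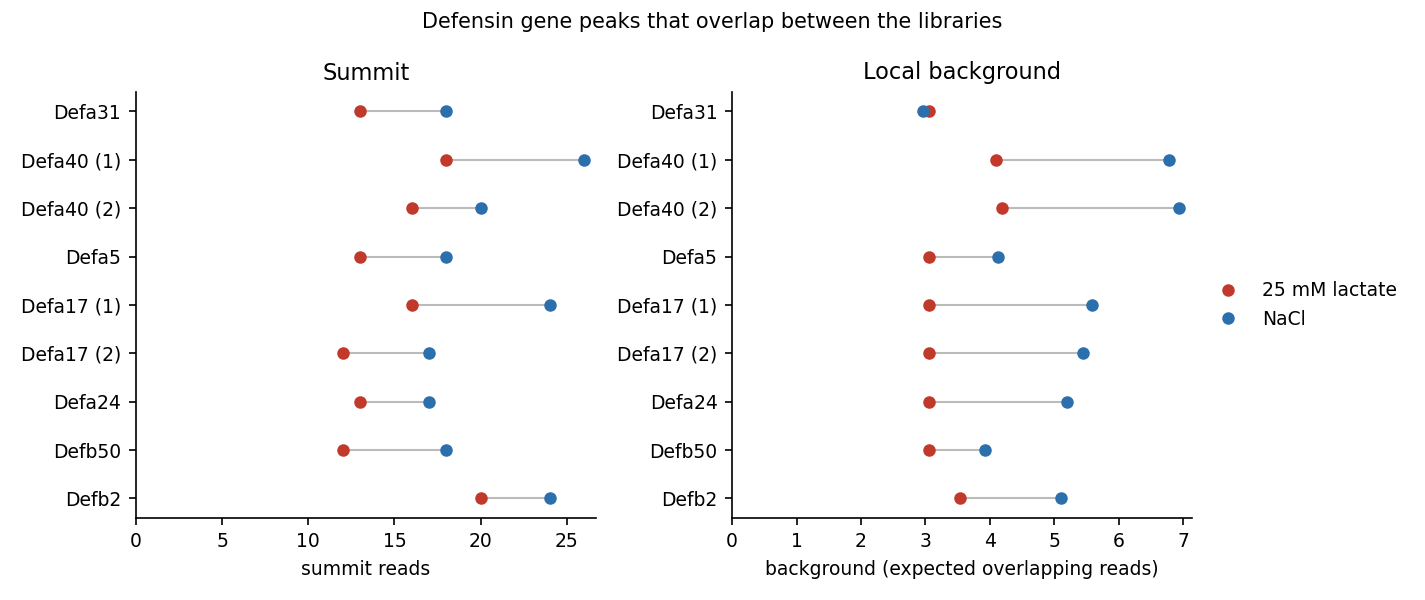
Summit reads (left) and local background in expected overlapping reads (right) for the 9 pairs of overlapping peaks at defensin genes, in the lactate library (red) and the NaCl library (blue); genes with 2 pairs are numbered. All 9 summits and 8 of 9 backgrounds are higher in the NaCl library, Defa31 having 3.06 and 2.96 reads of background.

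NaCl peaks were dense across the Defa run as a whole, between the genes as well as at them. The run from Defb33 to Defb13 (1.06 Mb) held 33 lactate peaks and 67 NaCl peaks, or 31.3 per Mb (21.5 to 43.9) against 63.4 per Mb (49.2 to 80.6). The rest of chromosome 8 had 21.9 per Mb in the lactate library, inside the interval of the run, and 26.8 per Mb in the NaCl library, below it. Windows of the members cover 14.3% of this run and held 33.3% of its lactate peaks and 34.3% of its NaCl peaks. The median background under the peaks of the run was 3.12 reads in the lactate library and 4.06 in the NaCl library, whereas on the rest of the chromosome it was 5.52 in the lactate library and 3.73 in the NaCl library. The run from Defb40 to Defb7 held 26.8 lactate peaks per Mb (14.6 to 44.9), against 40.2 NaCl peaks per Mb (24.9 to 61.4), with overlapping intervals. Its direction turned when the lists were taken at equal length, with 26.8 per Mb in the lactate library and 23.0 in the NaCl library, and at a −log10 q of at least 5 each library had 1.91 per Mb. The Defb runs of chromosomes 2 and 14 held no peak in either library, though they are just 0.164 and 0.0711 Mb long.

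Other annotated entries in the chromosome 8 runs had peaks too. In the run from Defb33 to Defb13, 4 of 30 such entries had a gene-end peak in the lactate library, against 8 in the NaCl library. AY761185, Defa-ps8 and Gm15313, which RefSeq lists as protein-coding, had one in both libraries. The pseudogenes Defa-ps16, Defa-ps10 and Gm7869 had one in the NaCl library alone. The snoRNA entries Gm22447 and Gm24568 had the peaks already given for Defa39 and Defa38. In the run from Defb40 to Defb7, Defa-ps13 had one in both.

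**Figure D4:**
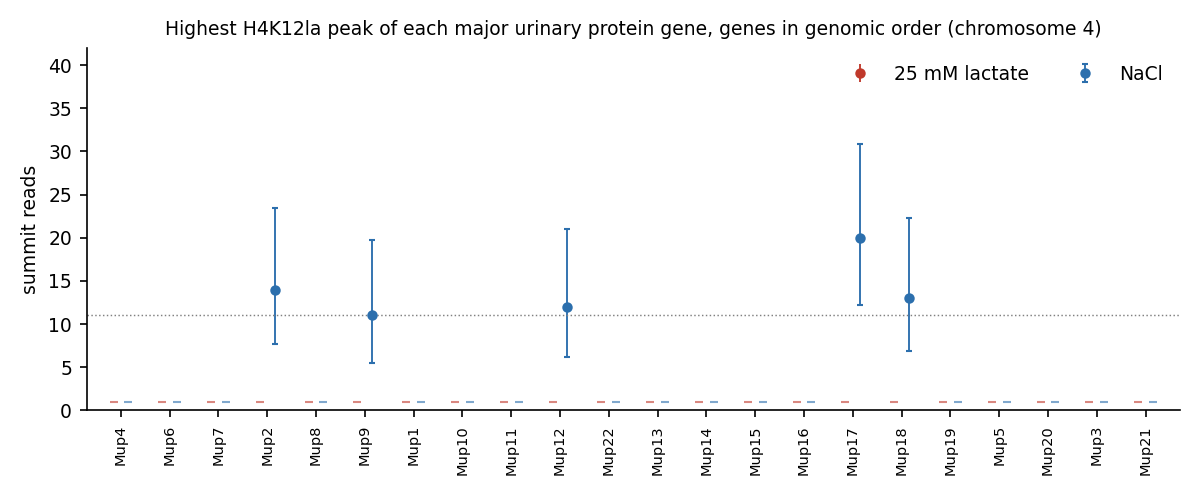
Summit reads (vertical axis) of the highest peak in or within 1 kb of each Mup gene, in genomic order, with exact 95% Poisson intervals; short dashes near the axis mark no peak and the dotted line the lowest called summit of 11 reads. All 5 genes with a peak have it in the NaCl library (blue) and none in the lactate library (red).

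The urinary protein genes had peaks in the NaCl library and none in the lactate library. Mup17 had the highest, with 20 summit reads (12.2 to 30.9), a fold of 5.31 and a −log10 q of 7.15, at chr4:61595601-61595788, 169 bp inside the gene from its start. Mup2 had peaks of 14 and 13 reads, 27 and 562 bp inside. Mup12 had a peak of 12 reads within 1 kb of its higher-coordinate end. Farther inside their genes, Mup18 had 13 reads 2479 bp from its start, and Mup9 had 11 reads 1674 bp from its start. Of these 5 genes, Mup17 alone passed a −log10 q of 5, and the other peaks lay between 1.42 and 2.58. The 17 others, including Mup20, named here for its role as the male scent signal darcin, had no peak in either library.

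Near-identical Mup promoters occurred at genes with and without a peak. Mup2, also called in the NaCl library alone, has a promoter 96.0% identical to that of Mup17, whereas Mup15 had no peak. The promoter of Mup17 (chr4:61595783-61596082, minus strand) and that of Mup15 (chr4:61439655-61439954, minus strand), 98% identical and 6 edits apart, are shown because just the first gene had a peak, which reached 6 bp into the printed stretch. Capitals mark TATATAA, 25 bp before the start in both.
Mup17: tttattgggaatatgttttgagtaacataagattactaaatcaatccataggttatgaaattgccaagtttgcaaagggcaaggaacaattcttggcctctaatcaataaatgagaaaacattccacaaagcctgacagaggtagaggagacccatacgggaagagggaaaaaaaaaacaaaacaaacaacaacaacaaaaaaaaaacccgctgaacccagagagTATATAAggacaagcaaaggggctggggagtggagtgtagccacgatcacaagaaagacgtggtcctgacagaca
Mup15: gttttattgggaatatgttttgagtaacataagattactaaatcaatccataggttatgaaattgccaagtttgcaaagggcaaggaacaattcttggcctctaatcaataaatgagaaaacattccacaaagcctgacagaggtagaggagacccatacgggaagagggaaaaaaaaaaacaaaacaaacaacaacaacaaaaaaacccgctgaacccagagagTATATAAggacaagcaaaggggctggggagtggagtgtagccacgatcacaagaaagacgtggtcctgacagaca
Of the 50-base words in the Mup17 promoter, 85.3% also occur in the promoter of another member, and of those in the Mup15 promoter 99.2% do. The run from Mup4 to Mup21 held 9 lactate peaks and 28 NaCl peaks over 2.19 Mb, or 4.10 per Mb (1.88 to 7.79) against 12.8 per Mb (8.48 to 18.4), beside 13.2 per Mb in the lactate library and 11.8 in the NaCl library on the rest of chromosome 4. Of the 9 lactate peaks, 8 overlapped a NaCl peak, and none lay in a member's window. None of the 19 Mup pseudogenes in the run had a gene-end peak in either library.

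Promoters of all 3 families are poor in CG dinucleotides, with a median of 1 per 300 bp promoter among 60 promoters of members and none above 8, against a median of 13 among 21263 promoters of all protein-coding genes, of which 58.9% had more than 8. Medians were 21 for genes called in both libraries, 20 for those called in the lactate library alone, 6 for those in the NaCl library alone and 5 for those in neither. Olfr promoters had a median of 1. TATAAA, sought on both strands, was in 15 of 16 Defa promoters (93.8%), 5 of 30 Defb (16.7%) and 2 of 14 Mup promoters (14.3%), against 12.6% of all and 41.0% of Olfr promoters. TATATAA on either strand was in 13 of 14 Mup promoters, no Defa and 5 of 30 Defb promoters, against 3.13% of all and 12.8% of Olfr promoters; it overlaps TATAAA in 2 of the Mup promoters. A match is a description of letters and not a site of binding.

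**Figure D5:**
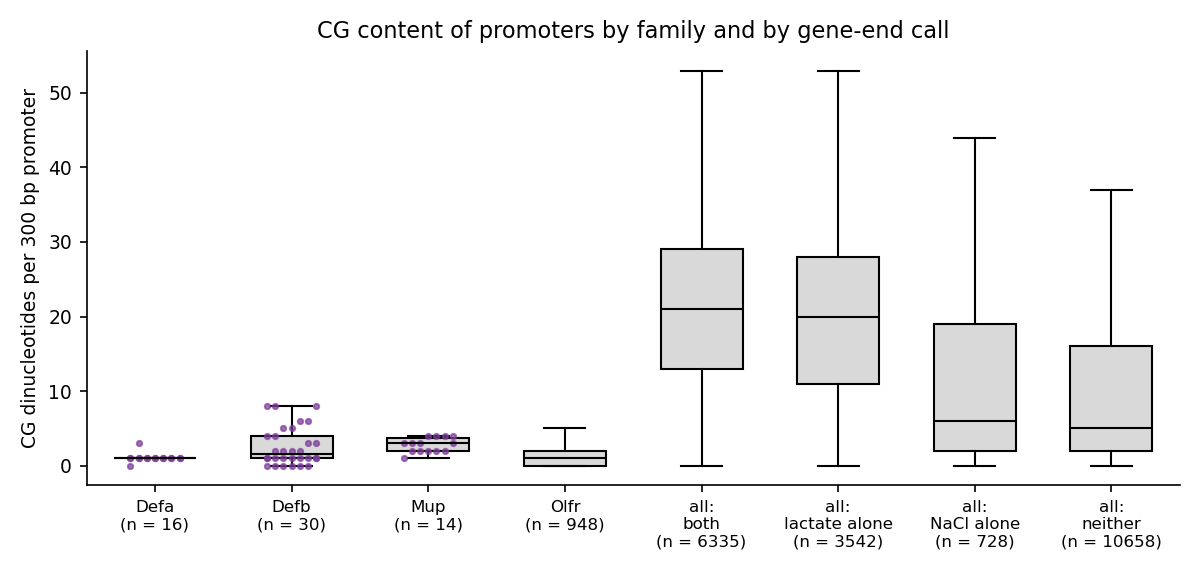
CG dinucleotides per 300 bp promoter (vertical axis) for Defa, Defb, Mup and Olfr genes and for all protein-coding genes split by gene-end call; boxes give the median and quartiles, whiskers reach the farthest value within 1.5 box lengths, and dots are single promoters of members. Members lie at 8 or below, with family medians of 1, 1.5 and 3, while genes called in both libraries have a median of 21.

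Likeness between copies also differed by family. Compared with the most similar other member of its family, the median promoter identity was 100% for Defa (16 promoters, 10 of them with an identical copy), 92.5% for Mup (14 promoters) and 50.3% for Defb (30 promoters). Among Mup genes the medians were 97.0% for the 2 called in the NaCl library alone and 91.7% for the 12 not called, and among Defa genes 89.15% for the 4 called in the NaCl library alone and 100% for both the 1 called in both libraries and the 11 not called. Among Defb promoters they were 74.0% for the 2 of genes called in the NaCl library alone and 50.15% for the 28 of genes not called. Those 2 belong to Defb5 and Defb11 of chromosome 8, while the 28 include promoters of chromosomes 1, 2 and 14. These groups are small and were not tested. Identity over fixed 300 bp stretches is a rough measure. Defb41 had 48.3% although 0% of its 50-base words occur in another member, so values near 50% need not mean likeness. Mup11 had 83.7%, with 71.7% of its words in another member.

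The limit of 1 kb divides peaks of like size. The last peak inside it, 872 bp from Defb11, had 16 reads, and the first outside it, 1043 bp from Defa42, had 15, both in the NaCl library. At 1696 bp from Mup8 lay a NaCl peak of 18 reads with a −log10 q of 5.68, and on either side of Defb3, from 2025 to 2654 bp away, lay peaks of 20 and 19 reads in the lactate library and 26 and 20 in the NaCl library.

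Calls near gene ends are given next for genes around the runs and for lists of related genes. In each list except that for pheromone detection, most genes had none in either library, as had 51.9% of all genes. Beside the Mup run, Snx30 was called in both libraries, Zfp37 in the lactate library alone, and Slc46a2 and Slc31a2 in neither. Beside the Defb run of chromosome 14, Ints6 was called in both, Wdfy2 and Ctsb in the lactate library alone, and Fdft1 in neither. Beside that of chromosome 2, H13 was called in the lactate library alone, and Zcchc3, 6820408C15Rik and Rem1 in neither. Around the run from Defb33 to Defb13, Gm40469 and Gm21119 below it were called in both, and Fam90a1a and Ccdc70 above it in neither. Below the run from Defb40 to Defb7, Agpat5 had 48 reads in the lactate library, against 23 in the NaCl library, and Xkr5 had 41 in the lactate library and 24 in the NaCl library. Above that run, 4930467E23Rik had 32 reads in the lactate library and 33 in the NaCl library, and 9530057J20Rik had 56 in the lactate library and 57 in the NaCl library. Of 10 matched genes for defensin handling and Paneth cells, the lectin Itln1 had 23 reads in the lactate library, against 27 in the NaCl library, Nod2, a sensor of bacterial cell wall, had 14 in the lactate library alone, and 8 had no call, among them Mmp7 and Ccr6. Of 12 epididymis and beta-defensin-like genes, Crisp4 had 24 reads in the NaCl library alone and 11 had no call. Of 11 lipocalin relatives, the retinol carrier Rbp4 had 22 reads in the lactate library, against 17 in the NaCl library, Ptgds had 19 in the lactate library alone and 9 had no call. Of 9 regulators of Mup expression, the growth hormone receptor Ghr alone had a gene-end call, with 24 reads in the lactate library, against 17 in the NaCl library. With the whole gene counted, Zhx2, Stat5a, Stat5b, Cux2 and Nr3c1 also had peaks in both libraries (42.6% of all genes). Hnf4a had one in the lactate library alone (15.0% of all genes). In the same window Nod2 and Gnai2 of the other lists had peaks in both libraries, and Sox9 had one in the NaCl library alone. In the pheromone detection list, the G protein subunit Gnao1 had 22 reads in the lactate library, against 12 in the NaCl library, Gnai2 had 24 in the lactate library alone, and Trpc2 and Omp had no call.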

How the data were processed

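H4K12la was profiled by CUT&Tag in 2 libraries of Neuro2a cells, grouped by the treatment in the labels. The submitters' processing notes name BWA, MACS2 and deepTools, and build mm10. Versions, calling settings, any control library and the placing of reads with several matches were not stated in what was used here. For each library the authors deposited 1 peak list, with a fold over local background (a ratio), −log10 p and −log10 q at the summit, and a score that is 10 times the −log10 q in 39762 of 39768 lactate peaks and in all NaCl peaks. The lowest −log10 q was 1.3 in both.

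Chromosomes 1 to 19, X and Y were used, with 6 mitochondrial lines per list left out. Summit reads k and background b were solved from fold = (k + 1)/(b + 1) and the Poisson p, within 0.001 of the deposited −log10 p for all 39768 lactate peaks and 46591 of 46592 NaCl peaks. The solution was tested on simulated data. Total read counts are not in the lists. Intervals for shares (Clopper-Pearson) and reads (Poisson) are at 95% and cover counting error only.

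Genes and promoters came from RefSeq GRCm38.p6. An overlap of at least 1 bp counted. Runs were members no more than 500 kb apart, with at least 3 members. Rest-of-chromosome densities use the span from the first to the last peak. Every member with a peak was named, as were its nearest neighbours or closest relatives by promoter where they bear on it, and the rest were counted. Members and lists were chosen with earlier results of these data known. Identity is 1 minus edit distance over 300 bases, in percent. Work used Python 3.11.15, numpy 2.4.6, pandas 2.3.3, scipy 1.17.1 and edlib 1.3.9.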

Additional observations from a re-analysis of the deposited data

How the results depend on the processing

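No paired analysis was possible because each group had 1 library, and no library could be left out. Across the alternatives, no count of members called in the NaCl library fell below its lactate counterpart. Shares of all genes under these alternatives are not given here, so the counts below have no background beside them. Of all peaks, 24.7% in the lactate library and 13.2% in the NaCl library reached a −log10 q of 5. Keeping peaks that reached a −log10 q of 5, gene-end calls fell to 1 member in the lactate library and 6 in the NaCl library, 5 of them in the NaCl library alone. At a −log10 q of 10 they were 0 in the lactate library and 2 in the NaCl library, with 2 in the NaCl library alone. A window of 3 kb gave 16 members in the lactate library and 32 in the NaCl library, 1 in the lactate library alone, against 17 in the NaCl library alone. With lists of equal length 1 member was called in the lactate library alone. Counted over the whole gene, lactate and NaCl calls were 1 and 6 at a −log10 q of 5 (0 and 5 in that library alone). At 10 they were 0 and 2 (0 and 2 alone), and with lists of equal length 11 and 21 (3 and 13 alone).

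At a −log10 q of 5, peaks per Mb in the lactate and NaCl libraries were 0.456 and 2.28 in the Mup run, 1.91 and 1.91 from Defb40 to Defb7, and 5.68 and 11.4 from Defb33 to Defb13. With lists of equal length the NaCl density from Defb40 to Defb7 was 23.0 per Mb, below the 26.8 of the lactate library. With runs cut at gaps of 200 kb, the part from Mup4 to Mup22 had 23.1 NaCl peaks per Mb. The remaining 68 of 96 recomputed values stayed within 1.5 times the count or within the counting interval.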

Other observations

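The stretch of chromosome 8 between the defensin runs, from 19497776 to 20892666 (mm10), stood apart from both. Over 1.39 Mb it held 209 lactate peaks and 201 NaCl peaks, or 150.0 per Mb (130.0 to 172.0) against 144.0 per Mb (125.0 to 165.0). Median summits were 37 reads in the lactate library and 44 in the NaCl library, and the median local background was 13.56 reads in the lactate library and 16.2 in the NaCl library, where over all peaks it was 4.38 and 3.32. Of these peaks, 77.5% of the lactate and 77.1% of the NaCl ones overlapped a peak of the other library. All 5 protein-coding genes there were called in both libraries. Gm40469 had the highest gene-end summits of the 5, with 93 reads in the lactate library and 67 in the NaCl library. Gm15319 had 39 reads in the lactate library and 45 in the NaCl library, and 4930467E23Rik, 9530057J20Rik and Gm21119 had summits that differed by 1 read between the libraries.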
